A study of Rattus norvegicus with 7 samples.

Results

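Solute carriers are the membrane proteins of the Slc gene families, and 77 of the 346 Slc genes on the array made up the set described here. They were chosen by their signal: the gene symbol starts with Slc and a number, the transcript cluster with the highest mean stands for the gene, and the log2 value is 5 or more on at least 1 array, which is the study's floor for a usable signal. The rule also left out 9 genes by name (Slc2a1, Slc3a2, Slc7a1, Slc7a5, Slc8a1, Slc14a1, Slc26a4, Slc30a1 and Slc45a2), of which 6 reached the floor, and 263 Slc genes stayed below it on every array. The set follows the symbol, so that it holds Slc7a6os, which is named for its place on the strand opposite to a carrier gene and is not a carrier itself.

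Total RNA of whole lenses of male rats of the strain ICR/Ihr was hybridized to 7 arrays of the type GeneChip Rat Gene 2.0 ST, each age having 1, and the labels name no added agent. ICR is the Ihara Cataract Rat, an inbred line in which lens opacity arises by heredity as the animals age, and all arrays share this background. The arrays fall into the conditions no cataracts (2 and 4 weeks, 2 arrays), cortical opacity (8 and 10 weeks, 2 arrays), posterior subcapsular opacity (12 weeks, 1 array) and nuclear opacity (14 and 18 weeks, 2 arrays), and the series was made to find expression differences that go with the progress of the cataract. How many lenses or animals an array holds is not given in the sources used here, and the protocol label has the lens come out of a culture medium without giving a time in it. Condition and age cannot be told apart, since each condition has its own ages, and the spread behind each p-value includes the age gap within a condition.

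The lens has no blood vessels, and its fibre cells lose their organelles as they mature. Sugars, amino acids, ions and metals reach it from the surrounding fluids through membrane carriers, mostly in the epithelium and the outer fibres. Amino acid carriers feed protein and glutathione synthesis, chloride cotransporters set cell volume, bicarbonate carriers set pH, and most Slc25 carriers move metabolites across the inner mitochondrial membrane, with Slc25a17 as a peroxisomal exception. In whole lenses, fewer cells of a type and less RNA per cell cannot be told apart.

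Between no cataracts and nuclear opacity, 4 carriers passed the test, Slc12a2 and Slc25a28 as higher and Slc31a1 and Slc38a3 as lower. The sequences around the start of 3 of these genes are shown because both genes that were higher and 1 that was lower are among them, and Slc38a3 is named only. Each spans 300 bases, mostly before the start and partly after it (RefSeq, assembly GRCr8), 5′ to 3′ on the strand of the gene, with capitals for the GC box GGGCGG on either strand. The windows lie at chr18:53546083-53546382 (plus strand), chr1:252491293-252491592 (minus strand) and chr5:80830590-80830889 (plus strand).
Slc12a2: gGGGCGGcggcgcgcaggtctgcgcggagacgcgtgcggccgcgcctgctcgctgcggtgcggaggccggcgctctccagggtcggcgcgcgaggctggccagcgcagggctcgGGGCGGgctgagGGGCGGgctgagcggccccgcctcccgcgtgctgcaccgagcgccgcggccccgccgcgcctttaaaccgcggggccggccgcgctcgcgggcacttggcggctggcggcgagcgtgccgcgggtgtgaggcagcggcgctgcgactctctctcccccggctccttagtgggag
Slc25a28: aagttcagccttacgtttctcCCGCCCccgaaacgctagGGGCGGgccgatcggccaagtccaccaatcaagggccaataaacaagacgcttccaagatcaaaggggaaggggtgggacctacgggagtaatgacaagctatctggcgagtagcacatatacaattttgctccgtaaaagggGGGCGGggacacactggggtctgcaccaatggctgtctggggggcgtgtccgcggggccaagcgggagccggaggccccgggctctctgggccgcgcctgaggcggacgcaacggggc
Slc31a1: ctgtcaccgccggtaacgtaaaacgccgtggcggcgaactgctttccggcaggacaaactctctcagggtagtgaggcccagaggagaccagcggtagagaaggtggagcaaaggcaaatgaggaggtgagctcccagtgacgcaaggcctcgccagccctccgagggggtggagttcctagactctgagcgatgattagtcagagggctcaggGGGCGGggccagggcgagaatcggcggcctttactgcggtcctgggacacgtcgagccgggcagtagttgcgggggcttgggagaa
The Slc12a2 window held 3 GC boxes, as did that of Slc25a28, and the Slc31a1 window held 1. The windows consisted of G and C to 80.7% for Slc12a2, 62.7% for Slc25a28 and 63.0% for Slc31a1. Of the 69 members with a promoter in the table, 68.1% held a GC box, against 65.7% of the 4632 promoters of tested genes and 33.1% of all 33469 promoters. The letters CCAAT stood 3 times in the Slc25a28 window, and 39.1% of the members' promoters held them, against 36.3% of those of tested genes and 37.5% of all. None of the 3 windows held TATAAA or TGACNNNGC, the core of the antioxidant response element. The core was in 21.7% of the members' promoters, 15.3% of those of tested genes and 12.1% of all, and TATAAA in 4.35%, 7.15% and 14.2%. Both strands were searched, none of these motifs contains another, and a match is a match of letters alone.

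On the arrays, between 4146 and 4595 of 18166 named genes reached the floor, and 5168 reached it at least once and were tested. All 6 lens fibre markers on the array reached it, with a summed log2 level between 14.67 and 14.89, as did all 5 epithelial markers. The 2-week array stood apart in the markers of tissue that borders the lens: the summed log2 level of ciliary body and zonule genes (8 of 9 on the array reached the floor) was 10.16 at 2 weeks, 9.04 at 4 weeks and 7.47 to 8.52 later, and that of pigment cell genes (2 of 5) was 8.20, 5.45 and 4.82 to 5.18. Of the epithelial markers, Gja1 and Pax6 were also highest at 2 weeks, Gja1 with 8.13, then 6.96 at 4 weeks and 6.42 to 6.80 later. Foxe3, Cdh1 and Cryab were highest at later ages. No marker of photoreceptors, neurons and glia, blood, corneal epithelium or endothelium reached the floor, and 1 of 2 muscle markers did (Ckm). For blood 2 of 5 listed markers were on the array, for endothelium 1 of 3 and for corneal epithelium 2 of 3, so that these tissues were read from few genes. These marker values are set beside the carriers that were high at 2 weeks, and their part in those values was not tested.

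The 77 members differed in how far their values moved. For 21 of them the 7 values spanned less than 0.5 log2 units, for 23 they spanned 1 or more and for 10 they spanned 2 or more. The highest value was that of the 2-week array for 32 members (41.6%, against 29% of all tested genes) and that of the 18-week array for 19. The lowest was most often at 12 weeks (19 members) or 14 weeks (18). For the 18-week count and the lowest values, no count over all tested genes was made. Over all tested genes, the median of the value minus each gene's own mean was also lowest at 12 weeks (-0.07, against -0.02 at 14 weeks). The floor was reached on all 7 arrays by 41 members and on 1 array alone by 13, of which 9 reached it at 2 weeks only. In the condition without cataracts alone it was reached by 11 members and in nuclear opacity alone by 4. In cortical opacity alone it was reached by 1 and in posterior subcapsular opacity alone by 0. These members could enter the set only through a condition in which they were high. Without cataracts they were Slc4a4, Slc7a11, Slc13a3, Slc13a4, Slc16a1, Slc16a6, Slc16a10, Slc20a1, Slc25a44, Slc35e2b and Slc41a2. In nuclear opacity they were Slc1a2, Slc6a3, Slc12a4 and Slc35e1, and in cortical opacity Slc35d2. The members just inside the floor had highest values of 5.002 (Slc12a4), 5.01 (Slc35e2b), 5.04 (Slc41a2) and 5.05 (Slc16a6, Slc35d2). Those just outside had 4.98 (Slc25a46), 4.97 (Slc4a10), 4.96 (Slc39a6) and 4.94 (Slc38a7, Slc2a13).

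**Figure D1:**
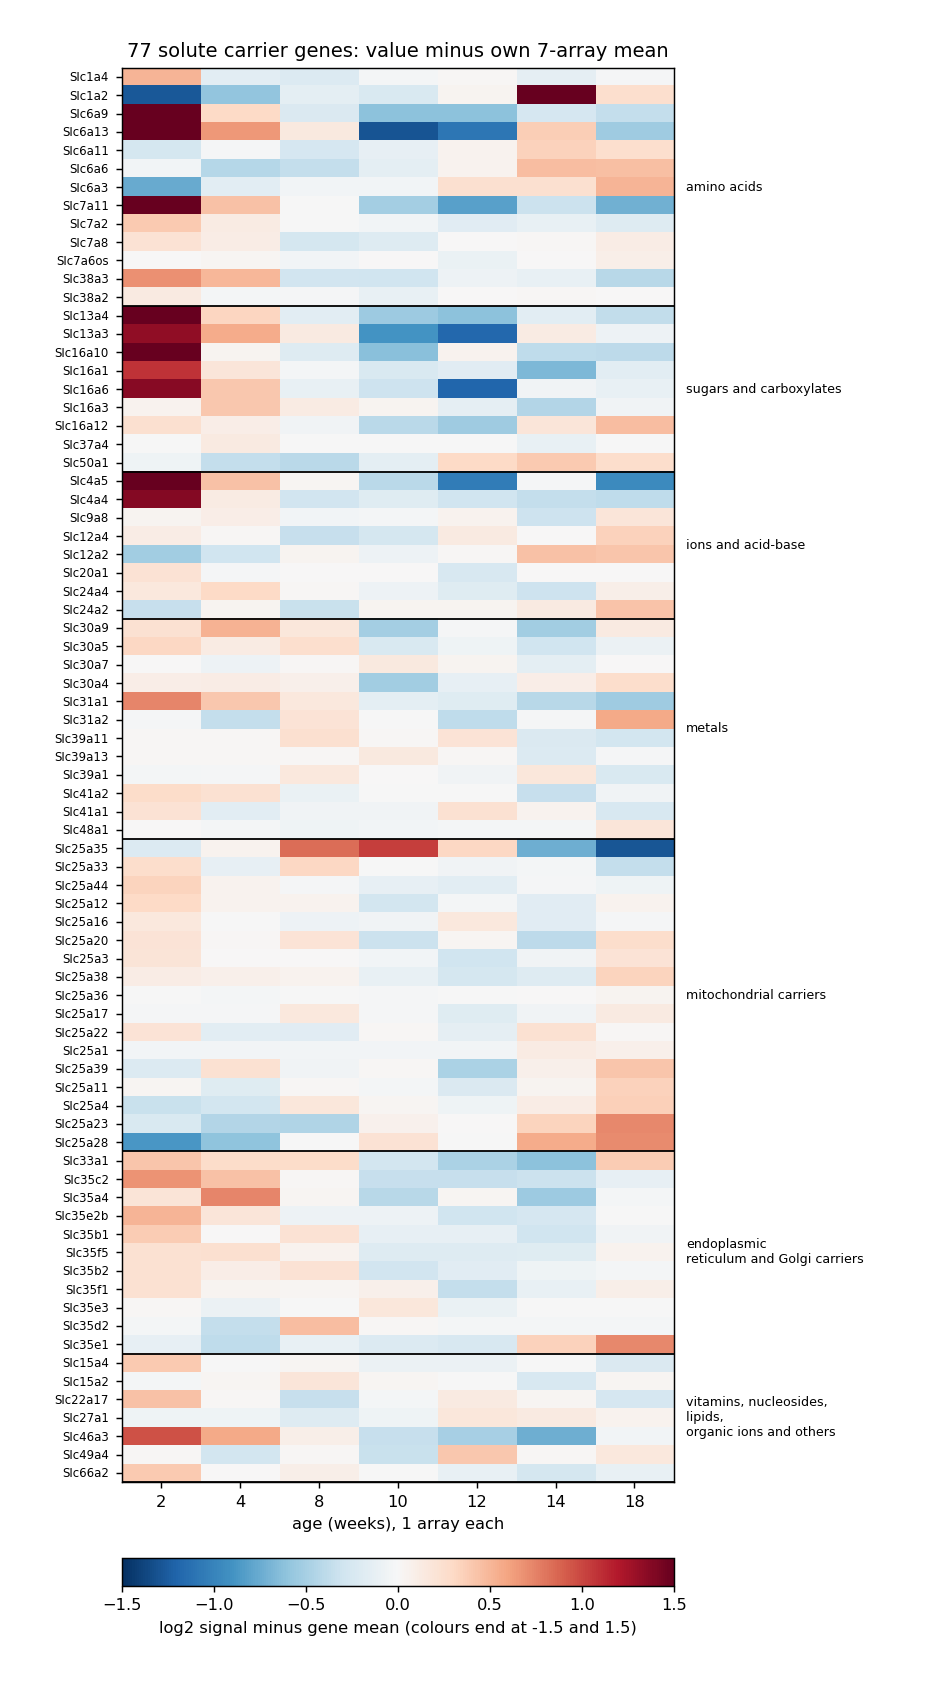
Heat map of the 77 carriers (rows, grouped by class) on the 7 arrays (columns, age in weeks), as log2 signal minus the gene's own mean over the arrays, red for above and blue for below. Several rows of the amino acid, carboxylate and bicarbonate carriers are dark red at 2 weeks, Slc25a35 is red at 8 and 10 weeks, and the bottom rows of the mitochondrial block pass from blue to red with age.

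Among ion carriers, Slc12a2, the sodium-potassium-chloride cotransporter that brings chloride into cells, rose. Its log2 values were 5.32 and 5.54 at 2 and 4 weeks, 5.88 and 5.77 at 8 and 10 weeks, 5.87 at 12 weeks and 6.29 and 6.26 at 14 and 18 weeks. Every array with opacity lay above both without, and both nuclear arrays lay above all others. Nuclear opacity was 0.84 ± 0.115 (limma SE) log2 units or 1.79-fold above no cataracts (n = 2 arrays each, adjusted p = 0.0265), and the trend was 0.0589 ± 0.0100 log2 units per week (7 arrays, adjusted p = 0.0148). Slc12a4, a potassium-chloride cotransporter that works in the opposite direction, had values between 4.32 at 8 weeks and 5.002 at 18 weeks and did not pass (nuclear difference 0.11 ± 0.140, adjusted p = 0.658).

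The electrogenic sodium bicarbonate cotransporters Slc4a4 and Slc4a5, which carry bicarbonate for pH control, were high on the 2-week array. Slc4a5 had log2 values of 7.56 and 6.04 without cataracts, 5.63 and 5.20 with cortical opacity, 4.56 with posterior subcapsular opacity and 5.59 and 4.65 with nuclear opacity. All arrays with opacity lay below both without. It fell with age, by 0.150 ± 0.0369 log2 units per week (adjusted p = 0.0454), but without the 2-week array the slope was -0.0893 ± 0.0326 and did not pass (adjusted p = 0.216). Slc4a4 was at 6.29 at 2 weeks, 5.03 at 4 weeks and 4.53 to 4.73 afterwards, so that the 2-week array set most of its range. It did not pass in the nuclear comparison (-1.11 ± 0.395, adjusted p = 0.163). It reached the floor only without cataracts, so that a lower value with opacity was partly given by the choice. Both Slc4 carriers lay at their highest on the array on which the ciliary and pigment markers were highest.

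The potassium-dependent sodium-calcium exchangers Slc24a2 and Slc24a4, which remove calcium from cells, had log2 values of 7.07 to 7.85 and 7.22 to 7.83. Slc24a2 was lowest at 2 weeks and highest at 18, Slc24a4 was highest at 4 weeks and lowest at 14, and neither passed in any comparison. Slc9a8, a sodium-proton exchanger of the Golgi and endosomes, stayed between 5.35 and 5.85, and Slc20a1, a phosphate importer, between 4.68 and 5.14.

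Metal carriers were led by Slc31a1, the high-affinity copper importer of the plasma membrane, which fell from array to array. Its log2 values were 7.83, 7.50, 7.25, 6.95, 6.92, 6.69 and 6.57 in order of age. No array lay above a younger one. Nuclear opacity was 1.04 ± 0.164 log2 units or 2.06-fold lower than no cataracts (adjusted p = 0.0336), and the gene fell by 0.0792 ± 0.0087 log2 units per week (adjusted p = 0.00329). Of the 8 carriers with an age trend, it alone passed under every alternative that was run, the fit without the 2-week array included (-0.0703 ± 0.0100, adjusted p = 0.0357). Slc31a2, its homologue in late endosomes and lysosomes, did not follow it: the values were 4.96, 4.62, 5.18, 4.98, 4.60, 4.96 and 5.55, and the nuclear difference was 0.47 ± 0.234 (adjusted p = 0.277).

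The other 10 metal carriers did not pass in any comparison. They are Slc30a4, Slc30a5, Slc30a7 and Slc30a9 of the zinc exporter family, the zinc importers Slc39a1, Slc39a11 and Slc39a13, the magnesium carriers Slc41a1 and Slc41a2 and the haem carrier Slc48a1. Slc30a9 had the largest nuclear difference of the Slc30 family (-0.57 ± 0.315, adjusted p = 0.318), with values between 5.19 at 14 weeks and 6.24 at 4 weeks. All 3 members of the Slc39 family had small nuclear differences, and the largest was that of Slc39a11 (-0.26 ± 0.111, adjusted p = 0.221). Slc41a2 had its lowest value at 14 weeks (4.43) and its highest at 2 weeks (5.04), and its nuclear difference of -0.45 ± 0.128 did not pass (adjusted p = 0.108). Slc30a4, which loads zinc into vesicles, dipped to 4.39 at 10 weeks and otherwise lay between 4.79 and 5.18. Slc30a7, Slc39a1, Slc39a13 and Slc41a1 spanned less than 0.5 log2 units each, Slc30a5 ranged from 4.64 to 5.24, and Slc48a1 from 6.73 to 6.98.

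Of the Slc25 carriers, 17 of 44 on the array were members, and Slc25a28 and Slc25a23 rose. Slc25a28 is mitoferrin-2, which imports iron into mitochondria. It had log2 values of 4.47 and 4.74 without cataracts, 5.33 and 5.56 with cortical opacity, 5.33 with posterior subcapsular opacity and 5.90 and 6.05 with nuclear opacity. Both arrays without cataracts lay below the floor and below all other arrays. Nuclear opacity was higher by 1.37 ± 0.145 log2 units (adjusted p = 0.0183), a difference from values at which background weighs more, and the trend was 0.0989 ± 0.0122 per week (adjusted p = 0.00478). Slc25a28 reached the floor only with opacity, so that a higher value there and the rise with age were partly given by the choice.

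Slc25a23, a calcium-regulated carrier of ATP-magnesium and phosphate, stayed between 5.42 and 5.64 up to 8 weeks and had 5.94, 5.87, 6.21 and 6.59 from 10 to 18 weeks. Its trend was 0.0668 ± 0.0145 log2 units per week (adjusted p = 0.0295), and it passed also without the 2-week array (0.0883 ± 0.0141, adjusted p = 0.0435). The nuclear difference of 0.86 ± 0.224 did not pass (adjusted p = 0.0877). Slc25a4, the ADP/ATP carrier of muscle and heart, had 8.72 and 8.77 without cataracts and 8.98 to 9.40 with opacity, without overlap, but did not pass (nuclear difference 0.53 ± 0.121, adjusted p = 0.0669). It is the only member with a second transcript cluster, which had lower values (4.67 to 5.27).

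Slc25a35, a mitochondrial carrier without a firmly assigned substrate, had a pattern of its own. Its log2 values were 5.35 and 5.60 without cataracts, 6.40 and 6.59 with cortical opacity, 5.87 with posterior subcapsular opacity and 4.82 and 4.27 with nuclear opacity. The conditions did not overlap, with cortical opacity highest and nuclear opacity lowest. Nuclear minus cortical opacity was -1.95 ± 0.211 (unadjusted p = 0.000171), which did not pass over all tested genes (adjusted p = 0.174) and passed only with a trended and robust prior (adjusted p = 0.0464). The 13 remaining Slc25 members spanned at most 0.90 log2 units (Slc25a39). Slc25a36, a carrier of pyrimidine nucleotides, stayed between 6.25 and 6.31, and Slc25a1, the citrate carrier, had the same value of 5.53 on 5 arrays. The phosphate carrier Slc25a3, which supplies ATP synthesis, was lowest at 12 weeks and reached 6.51 at 18 weeks. Slc25a11, the oxoglutarate and malate carrier, ranged from 7.32 at 12 weeks to 7.88 at 18 weeks, and Slc25a39, a glutathione importer, from 4.97 to 5.87 at the same ages. The aspartate and glutamate carrier Slc25a12 was highest at 2 weeks (5.84) and lowest at 10 weeks (5.27), and the carnitine carrier Slc25a20 lay between 5.43 at 14 weeks and 6.08 at 18 weeks. For Slc25a16, Slc25a17, Slc25a22, Slc25a33, Slc25a38 and Slc25a44 the values lay between 4.59 and 6.12.

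Values that were equal to 6 decimals on 3 or more arrays were found for 16 of the 77 carriers (20.8%) and 23.1% of all tested genes, and they lower the spread that a test sees.

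**Figure D2:**
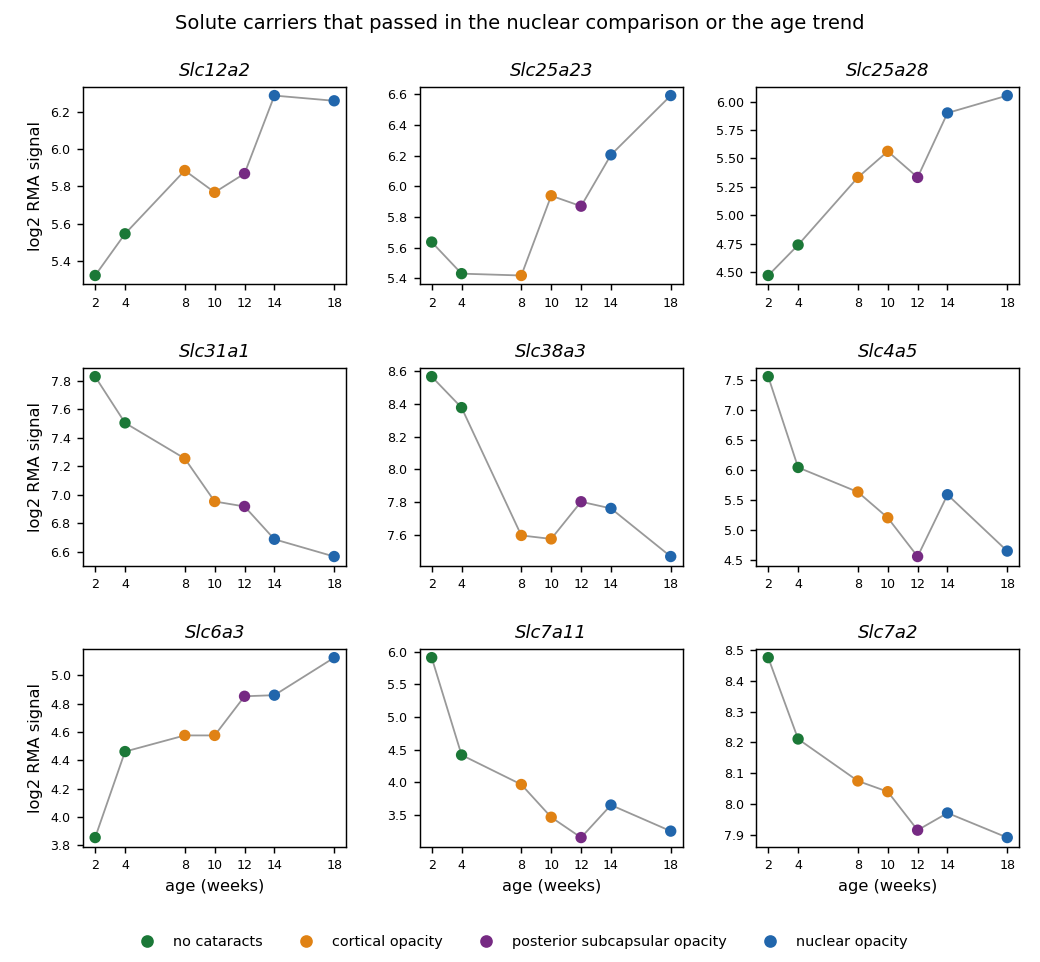
Log2 RMA signal (vertical, own scale per panel) against age in weeks for the 9 carriers that passed in the nuclear comparison or the age trend, with points coloured by condition and 1 array per point. Slc31a1 goes down at every step from 7.83 to 6.57, Slc25a28 and Slc12a2 go up, and Slc4a5 and Slc7a11 have their largest step between 2 and 4 weeks.

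Of the 13 members in the amino acid class, 1 passed as lower in nuclear opacity, beside 4.06% of all tested genes. With age 1 rose and 2 fell, beside 3.66% and 5.03%. Slc38a3, a sodium-coupled carrier for glutamine, had log2 values of 8.57 and 8.38 without cataracts, 7.60 and 7.57 with cortical opacity, 7.80 with posterior subcapsular opacity and 7.76 and 7.47 with nuclear opacity. Its step lay between 4 and 8 weeks, and the arrays with and without opacity did not overlap. It fell by 0.86 ± 0.136 log2 units or 1.81-fold from no cataracts to nuclear opacity (adjusted p = 0.0338). The cortical difference was as large (-0.89) and did not pass (adjusted p = 0.114, the smallest of the 77 in that comparison). Its relative Slc38a2, which takes up small neutral amino acids, stayed between 7.93 and 8.16. Slc7a6os, which is no carrier, stayed between 5.17 and 5.37.

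Slc7a11, the cystine/glutamate exchanger that supplies cystine for glutathione, fell with age. Its log2 values were 5.91 and 4.42 without cataracts, 3.97 and 3.47 with cortical opacity, 3.15 with posterior subcapsular opacity and 3.65 and 3.25 with nuclear opacity, so that it entered the set only through the 2-week array, where it was high, and a decrease from there was partly given by the choice. The slope was -0.143 ± 0.0340 per week (adjusted p = 0.0400) and, without the 2-week array, -0.0798 ± 0.0233 (adjusted p = 0.136). Slc7a2, a carrier of arginine and lysine, went from 8.48 and 8.21 without cataracts to 7.97 and 7.89 in nuclear opacity, a decrease with age (-0.0331 ± 0.0083 per week, adjusted p = 0.0491) that passed in 6 of 16 alternatives and was lost without the 2-week array (-0.0227 ± 0.0087, adjusted p = 0.240) and after quantile normalization (adjusted p = 0.0878) or median centring (adjusted p = 0.0683). Slc7a8, an exchanger of neutral amino acids, was high throughout (8.93 to 9.41), with its lowest values at 8 and 10 weeks, and did not pass.

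In the Slc6 family, 3 of 5 members had positive nuclear differences, beside 2171 of the 5168 tested genes. The age trend passed for 1 member. Slc6a3, named for dopamine transport in neurons, was at 3.86 and 4.46 without cataracts, 4.58 on both cortical arrays, 4.85 at 12 weeks and 4.86 and 5.13 in nuclear opacity. It rose by 0.0673 ± 0.0114 log2 units per week (adjusted p = 0.0145), but it entered the set only through the 18-week array, where it was highest, and without the 2-week array it did not pass (0.0489 ± 0.0098, adjusted p = 0.0684). Slc6a6, which takes up taurine, an osmolyte of the lens, was at 6.79 and 6.41 without cataracts, 6.47, 6.69 and 6.88 from 8 to 12 weeks and 7.30 and 7.28 in nuclear opacity. Both nuclear arrays lay above the others, and the difference did not pass (0.69 ± 0.159, adjusted p = 0.0683).

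Slc6a11, a GABA carrier, also had its highest values on the nuclear arrays (5.32 and 5.22, against 4.71 to 5.02 before) and did not pass (0.44 ± 0.124, adjusted p = 0.103). It reached the floor only from 12 weeks on, so that a higher value in nuclear opacity was partly given by the choice.

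The glycine carrier Slc6a9 and Slc6a13, which carries GABA and taurine, were highest at 2 weeks. Slc6a9 was at 7.38 at 2 weeks, 5.91 at 4 weeks and 5.0002 to 5.40 later (nuclear difference -1.34 ± 0.472, adjusted p = 0.161). Slc6a13 was at 7.28 and 6.19 at these ages and between 4.25 and 5.90 later. The glutamate carrier Slc1a2, which clears glutamate in the brain, had 2.94 and 3.62 without cataracts, 6.14 at 14 weeks and 4.46 at 18 weeks. It entered the set only through the 14-week array, and its values without cataracts lay below the floor. Its nuclear difference of 2.02 ± 0.560 rested on that array (1.18 ± 0.327 without it) and did not pass (adjusted p = 0.101). Slc1a4, a carrier of alanine, serine and cysteine, was at 6.58 at 2 weeks and 5.87 to 6.09 afterwards.

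Carriers of sugars and carboxylates had the highest class median at 2 weeks. The median of their values minus each gene's own mean was 1.08 at 2 weeks, 0.18 at 4 weeks and between -0.31 and -0.06 later, against 0.04, 0.03 and between -0.07 and 0.03 for all tested genes. Of the 9 members 5 (Slc13a3, Slc13a4, Slc16a1, Slc16a6 and Slc16a10) entered the set only through the 2-week array, so that this median was largely fixed by the choice. Slc16a1, the widespread lactate and pyruvate carrier, was at 5.83 at 2 weeks, 4.94 at 4 weeks and 4.08 to 4.73 later (nuclear difference -1.05 ± 0.334, adjusted p = 0.135). The lactate exporter Slc16a3, typical of glycolytic tissue, spanned 5.12 to 5.96. Slc16a12, a creatine carrier in which mutations cause juvenile cataract in people, was at 5.31 and 5.17 without cataracts, went through 5.01 and 4.66 to 4.54 at 12 weeks, and was at 5.25 and 5.53 in nuclear opacity. None of these carriers passed.

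Slc16a10, a carrier of aromatic amino acids, fell short of the floor on every array but the 2-week one (5.51, then 3.37 to 4.06), as did Slc16a6 (5.05, then 2.49 to 4.08), the citrate and dicarboxylate carrier Slc13a3 (5.75, then 3.24 to 4.98) and the sulfate carrier Slc13a4 (6.07, then 3.93 to 4.87). Of the class, Slc50a1, a sugar carrier of the Golgi and plasma membrane, moved the other way, with 6.85 to 7.19 up to 10 weeks and 7.52 to 7.65 from 12 weeks. Its values from 12 weeks on did not overlap with the earlier ones, and no comparison passed (nuclear difference 0.54 ± 0.151, adjusted p = 0.102). Slc37a4, the glucose-6-phosphate carrier of the endoplasmic reticulum, stayed between 5.05 and 5.29.

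Carriers of the endoplasmic reticulum and Golgi, which import nucleotide sugars, sulfate donor or acetyl-CoA for protein modification, had a nuclear median of -0.30 over 11 members, and 0 passed. Slc35c2, which acts in fucosylation, was at 5.81 and 5.57 without cataracts, 5.15 and 4.78 with cortical opacity, 4.78 at 12 weeks and 4.81 and 5.01 in nuclear opacity. All its arrays with opacity lay below those without (nuclear difference -0.78 ± 0.169, adjusted p = 0.0611). Slc35e1, a member with no role assigned here, had 4.33 to 4.60 up to 12 weeks and 5.06 and 5.43 in nuclear opacity (0.79 ± 0.164, adjusted p = 0.0574). It entered the set only through the nuclear arrays, so that a higher value there was partly given by the choice. Slc35b1, which brings ATP into the endoplasmic reticulum, went from 8.16 at 2 weeks to 7.48 at 14 weeks and 7.73 at 18 weeks. Slc35b2, which carries the sulfate donor of the Golgi, lay between 5.10 and 5.62, and Slc35d2 stood at 5.05 at 8 weeks and at 4.22 to 4.60 elsewhere. Slc35a4 was highest at 4 weeks (5.70) and lowest at 14 weeks (4.43), Slc35e2b was highest at 2 weeks (5.01) and lowest at 12 weeks (4.20), and Slc35e3, Slc35f1 and Slc35f5 lay between 5.39 and 6.20. Slc33a1, the acetyl-CoA carrier, had 5.30 to 5.44 up to 8 weeks, 4.41 to 4.75 from 10 to 14 weeks and 5.41 at 18 weeks, so that its nuclear arrays lay far apart.

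Among the 7 members of the remaining families, Slc46a3, a lysosomal carrier, had 6.51 and 6.13 without cataracts, 5.65 and 5.22 with cortical opacity, 5.06 at 12 weeks and 4.83 and 5.53 in nuclear opacity. Its nuclear difference was -1.15 ± 0.290 and did not pass (adjusted p = 0.0835). Slc22a17, Slc66a2 and Slc15a4 had their highest values at 2 weeks (7.01, 6.24 and 5.83) and Slc49a4 at 12 weeks (5.51), without passing in any comparison. The oligopeptide carrier Slc15a2 stayed between 6.21 and 6.62, and the fatty acid carrier Slc27a1 between 4.91 and 5.28.

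**Figure D3:**
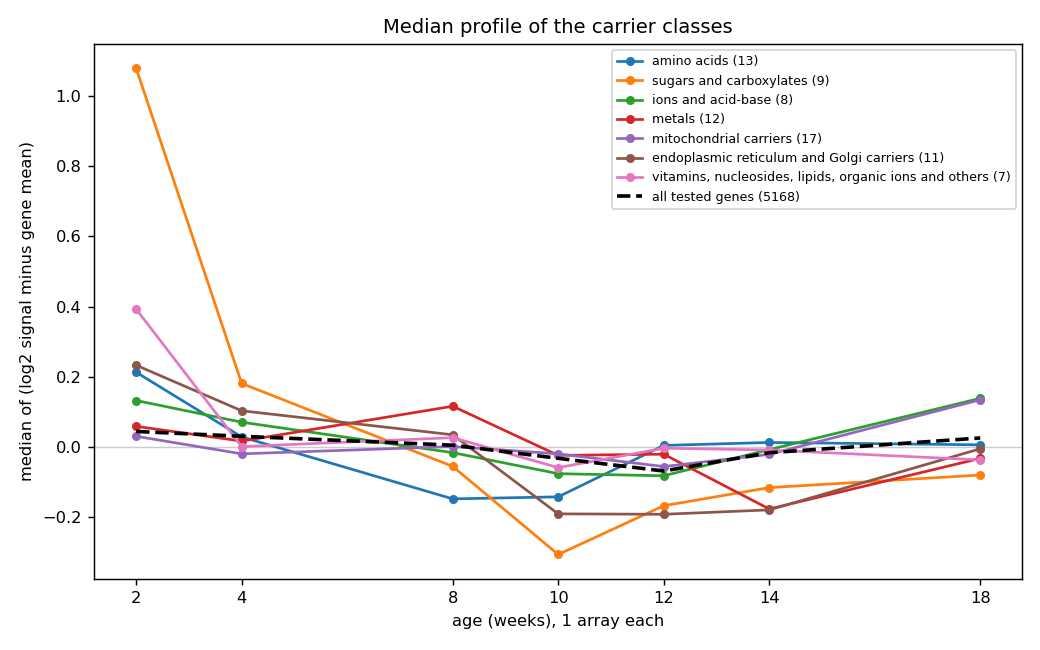
Median over the members of each carrier class (number in brackets) of log2 signal minus the gene's own mean (vertical) against age in weeks, with all 5168 tested genes as a dashed line. Sugar and carboxylate carriers stand at 1.08 at 2 weeks and below 0 from 8 weeks on, where 5 of the 9 were chosen through the 2-week array alone, while the 17 Slc25 carriers (labelled mitochondrial) stay between -0.06 and 0.13.

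Set against all tested genes, the share of carriers that passed in the nuclear comparison (5.19%) was near that of all tested genes (6.10%). As higher, 2 of 77 passed (2.60%) against 2.03% of the 5168 tested genes, and as lower 2 (2.60%) against 4.06%. With age, 4 rose (5.19%, against 3.66%) and 4 fell (5.19%, against 5.03%), and these counts hold Slc6a3 and Slc7a11, which were chosen through the array on which they were highest. Slc25a28, which passed as higher in nuclear opacity and rose with age, reached the floor only with opacity. Its direction was partly given by the choice in both. By family, the nuclear median was -1.40 for Slc4 (2 members), -1.05 for Slc13 (2), -0.97 for Slc16 (5), -0.25 for Slc35 (10), 0.04 for Slc25 (17) and 0.44 for Slc6 (5), beside -0.14 for all 77 members and -0.05 for all tested genes. Slc4a4, 1 of the 2 Slc4 members, reached the floor only without cataracts, so that its negative difference was partly given by the choice. Both Slc13 members and 3 of the 5 Slc16 members were chosen through the 2-week array alone. Without that array the medians were -0.70 for Slc4, -0.56 for Slc13 and -0.49 for Slc16. The class median of sugar and carboxylate carriers was then -0.49 in place of -0.92, and that of all members -0.08. The nuclear calls rest on the few arrays and were lost when any 1 array other than the 12-week one was left out. Such fits have fewer degrees of freedom, and over all tested genes most or all calls were lost too. Of the 8 carriers with an age trend only Slc25a23 and Slc31a1 passed without the 2-week array, where 74 of all tested genes did in place of 449.

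**Figure D4:**
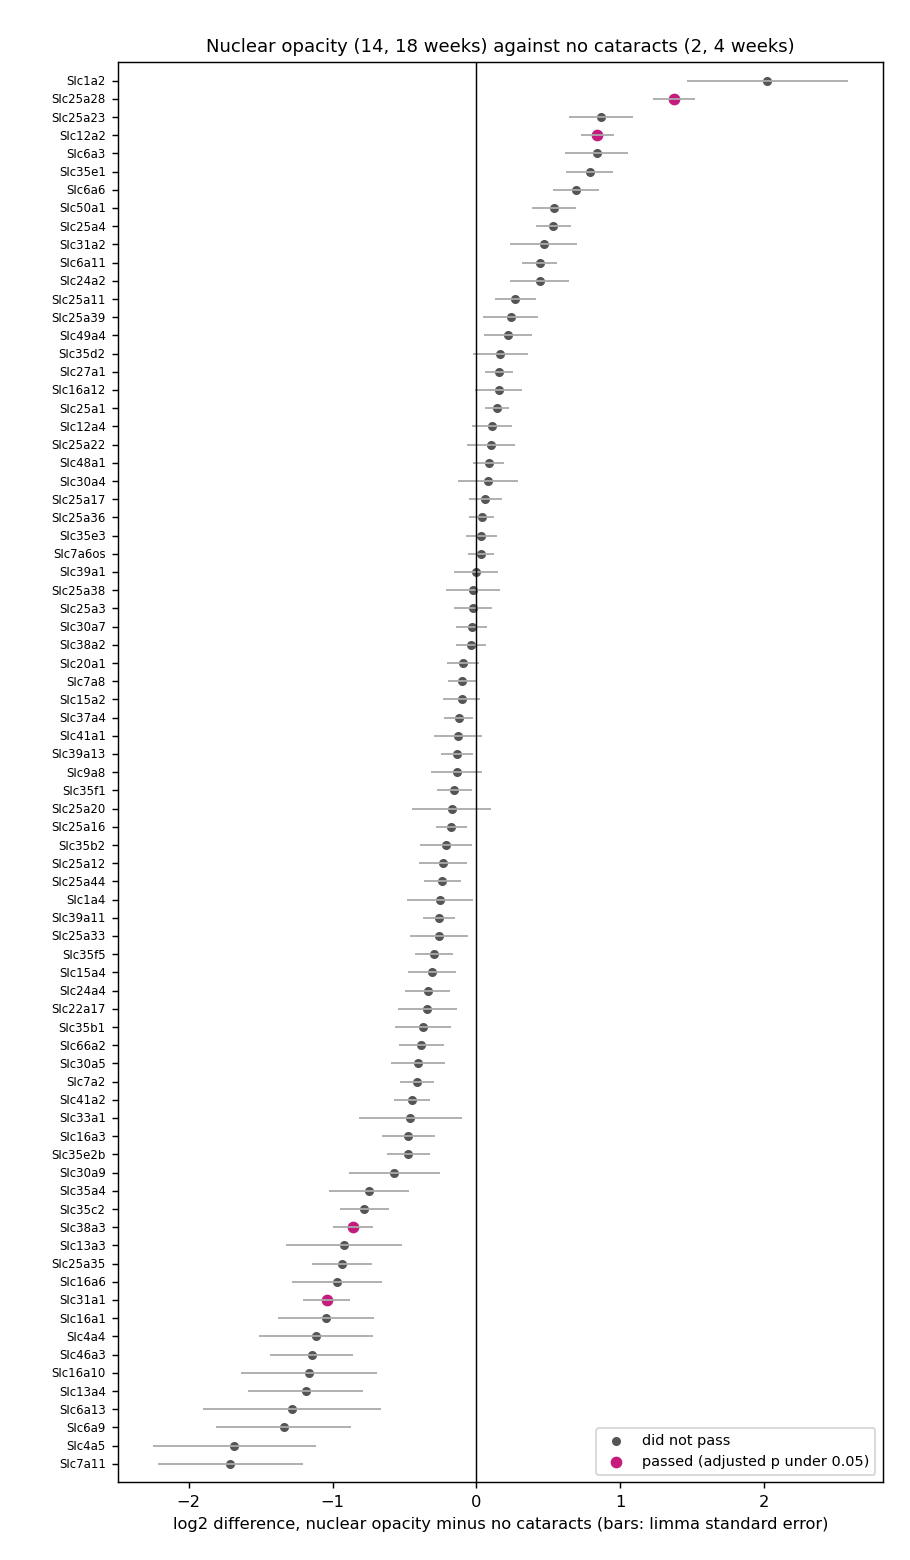
Log2 difference between nuclear opacity and no cataracts (horizontal, points, with limma standard errors as bars) for the 77 carriers in order of size (vertical). Slc25a28 and Slc12a2 passed above 0 and Slc38a3 and Slc31a1 below 0, while carriers with larger differences such as Slc7a11 and Slc1a2 have wider bars and did not pass.

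Between cortical opacity and no cataracts 0 carriers passed, as did 0.0% of the 5168 tested genes. At an unadjusted p under 0.05, 4 carriers were higher (Slc12a2, Slc25a4, Slc25a28 and Slc25a35), against 3.13% of all tested genes, and 13 were lower (16.9%, against 12.9%). Of these 13, Slc7a11, Slc13a3, Slc13a4, Slc16a6 and Slc35e2b reached the floor only without cataracts. A lower value with any opacity was partly given by the choice for them, and they are also among those lower in posterior subcapsular opacity. Of the 4 that were higher, Slc25a28 reached the floor only with opacity. Its higher value was partly given by the choice, also in posterior subcapsular opacity. Posterior subcapsular opacity has 1 array, whose spread is taken from the other conditions, and 0 carriers and 0.0% of all tested genes passed. At an unadjusted p under 0.05, 5 carriers were higher (6.49%, against 3.48%) and 16 were lower (20.8%, against 18.4%), and the smallest adjusted p was that of Slc16a6 (-2.07, adjusted p = 0.0848), which was chosen through the 2-week array alone. The median over all tested genes was itself -0.13 in this comparison and 0.03 after quantile normalization, beside -0.16 and -0.03 for the carriers, so that differences at 12 weeks are read relative to that shift. Between nuclear and cortical opacity 0 carriers passed, and 0.0193% of all tested genes did. At an unadjusted p under 0.05, 10 carriers were higher in nuclear opacity (13%, against 6.73%), among them Slc6a6, Slc50a1 and Slc35e1. Slc12a4 and Slc35e1 of these 10 entered the set only through nuclear opacity, so that their direction was partly given by the choice. The same holds in part for Slc6a11, which reached the floor only from 12 weeks on. As lower there were 3 (3.90%, against 4.41%), Slc25a35, Slc31a1 and Slc39a11.

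From 2 to 4 weeks, both without cataracts and with 1 array each, 7 carriers were lower by 1 log2 unit or more. They were Slc4a5 (-1.51), Slc7a11 (-1.49), Slc6a9 (-1.46), Slc16a10 (-1.46), Slc4a4 (-1.26), Slc13a4 (-1.20) and Slc6a13 (-1.09). This is 9.09% of the carriers, against 1.35% of all tested genes, and 0 carriers were higher by as much, against 0.29%. With 1 array per age there is no test, and since 9 carriers entered the set only through the 2-week array, the share is a description of the set. Over the same step the ciliary body and zonule marker Fmod went from 7.71 to 6.08 and the pigment cell marker Tyrp1 from 7.62 to 4.06. Whether the carriers and the markers come from the same cells was not tested.

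**Figure D5:**
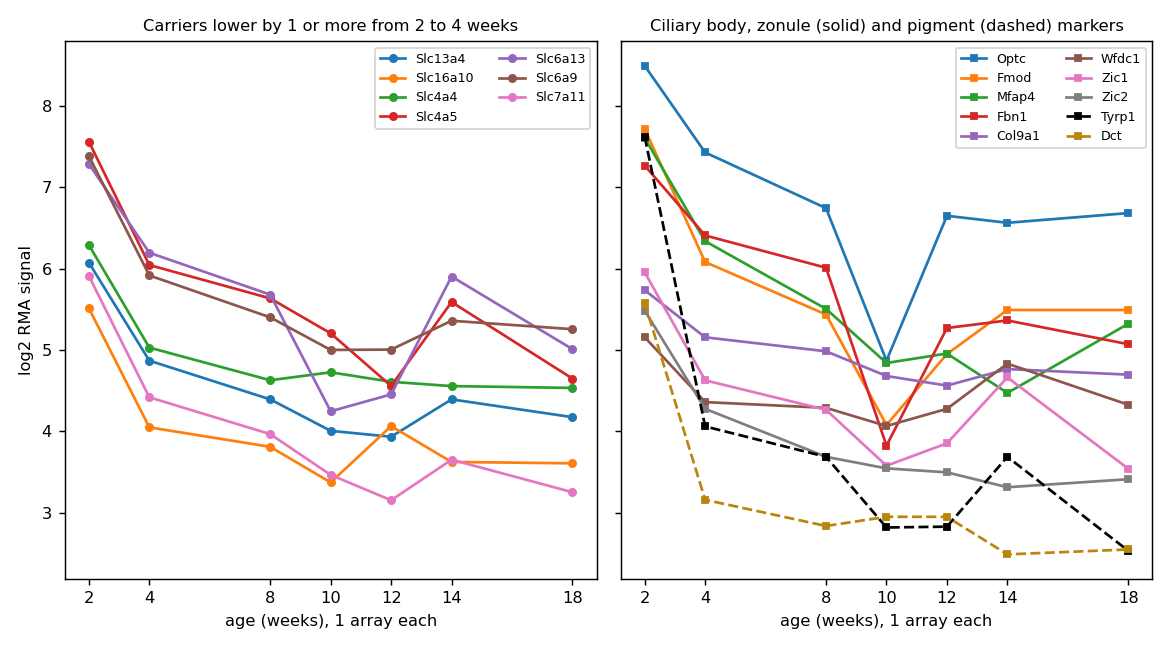
Log2 RMA signal against age in weeks, 1 array per point, for the 7 carriers that were lower by 1 or more at 4 than at 2 weeks (left) and for the markers of ciliary body and zonule (solid) and pigment cells (dashed) that reached the floor (right). In both panels every line falls from 2 to 4 weeks, Slc4a5 from 7.56 to 6.04 and Tyrp1 from 7.62 to 4.06.

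Carriers whose symbols do not start with Slc were read from a list of 51 genes on the array, of which 13 reached the floor. Spns2, which exports sphingosine 1-phosphate, was at 7.86 and 7.79 without cataracts, 7.09 and 6.86 with cortical opacity, 6.89 at 12 weeks and 6.33 and 6.62 in nuclear opacity. It was lower in nuclear opacity (-1.35 ± 0.142, adjusted p = 0.0183) and fell with age (adjusted p = 0.0145). Letm1, a cation exchanger of the inner mitochondrial membrane, and Mtch2, a protein of the outer one, fell with age (adjusted p = 0.0484 and 0.0397). So 1 of the 13 passed in the nuclear comparison and 3 with age, all as lower, beside 4.06% and 5.03% of all tested genes, and their nuclear median was -0.15, beside -0.05.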

How the data were processed

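RNA of ICR lenses was hybridized to 7 arrays, 1 per age. The deposited values are log2 signals of 36685 transcript clusters that the authors normalized by RMA in R, and they were used as deposited. A hybridization signal includes background, which shrinks differences of low genes, and levels were not compared between genes. The number of arrays limits the precision. Clusters with 1 gene symbol (18511) were used, those with several (575) or none (17599) were not. Symbols were updated through Entrez identifiers (18394 clusters; 117 kept theirs) with the RefSeq table of GRCr8. Condition means and the age trend were fitted with limma 3.58.1 in R 4.3.3 over 5168 genes that reached 5 on at least 1 array, the floor of the study. The condition fit had 3 residual degrees of freedom and the trend 5, before moderation. P-values were adjusted by Benjamini and Hochberg over all tested genes, with a threshold of 0.05. Named carriers were those that passed, the 10 with the smallest p in each comparison, the largest difference in families of 3 or more, carriers with a lens background and those next to the floor, and all other carriers were named after their values were seen. Carrier classes followed family numbers. The members and lists were chosen with earlier results of these data known. Alternatives concerned the filter, clusters, scaling, prior, weights and arrays. Figures were drawn with matplotlib 3.10.9.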

Additional observations from a re-analysis of the deposited data

How the results depend on the processing

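The number of carriers that passed between nuclear opacity and no cataracts was 4. It was 8 with a floor of 6, 0 with no filter on low values, 10 after quantile normalization, 10 with a trended and robust prior and 0 when only the arrays of both conditions were fitted. When 1 array was left out, it was 0 to 4, with 4 only without the 12-week array. The 4 carriers were among those that passed with a floor of 6, after quantile normalization and with the other prior. Over all genes of the main fit, 105 passed as higher and 210 as lower. These counts were 142 and 264 with a floor of 6, which left 35 carriers, and 0 and 0 with no filter, which took in 337. They were 212 and 254 after quantile normalization, 171 and 309 with the other prior and 8 and 15 with only the arrays of both conditions. Between nuclear and cortical opacity, 1 carrier (Slc25a35) passed with the trended and robust prior in place of 0. With age, 189 genes of the main fit rose and 260 fell. These counts were 49 and 63 with no filter and 182 and 438 with the log2 of age. The age trend had 8 carriers, 2 with no filter and 17 with the log2 of age (4 rising and 13 falling). Without 1 array it had 2 to 13, namely 2 without the 2-week, 3 without the 4-week, 4 without the 10-week or the 12-week, 5 without the 14-week and 13 without the 18-week array (4 rising and 9 falling). After quantile normalization 8 carriers rose and 4 fell with age (66.7% rising, against 50%), and of all tested genes that passed 45.5% rather than 33.3% were higher in nuclear opacity and 52.2% rather than 42.1% rose with age. Over 188 fits of the 9 carriers that passed, under these and the remaining alternatives, 116 passed and 0 turned direction. The age trend passed in 13 of 16 alternatives for Slc12a2, 15 of 16 for Slc25a28, 9 of 16 for Slc25a23, 7 of 16 for Slc4a5, 12 of 14 for Slc6a3 and 6 of 14 for Slc7a11, and each of the 4 nuclear calls in 8 of 16. Not all of these fits are separate looks at the data, and in many of them the direction could not turn. Changes of filter or prior leave a carrier's difference as it was. Leaving out an array of another condition does the same for a nuclear difference. For the nuclear calls, the fit without the 12-week array also repeats the main p-values, and leaving out either cortical array repeats the fit of both conditions alone. The sign of small nuclear differences, up to 0.04 in size, turned for 5 carriers after quantile normalization. The cause of these changes was not tested. With 1 or 2 arrays per condition, differences such as that of Slc1a2 could not be told from the spread. No paired analysis was possible because the labels give no replicate numbers and each array is another age.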
